A study of Xenopus laevis with 12 samples.

Results

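The genes described here encode the subunits of oxidative phosphorylation that are made from the nuclear genome, as measured in the brain of tadpoles of the frog Xenopus laevis. They were chosen by symbol in the NCBI gene table, as the rows that begin with ndufa, ndufb, ndufc, ndufs, ndufv, sdha, sdhb, sdhc, sdhd, uqcr, cyc1, cox4, cox5, cox6, cox7, cox8 or atp5, with the assembly factors ndufaf and sdhaf left out. The rule took 127 of the 37018 genes in the count tables. Complex I had 58 of them, complex II 7, complex III 13, complex IV 21 and complex V 28. This frog is allotetraploid and its genome keeps 2 subgenomes, so that many genes exist as a .L copy and a .S copy. By the ending of the symbol the 127 genes were 65 .L and 62 .S copies. They had 75 different symbols without the ending, which include isoforms of the same subunit, and 52 of these symbols had both copies. For cox7a2l.L and uqcrq.S, which have no second copy here, the gene table gives chromosomes of the other subgenome, 5S and 3L.

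Oxidative phosphorylation takes place in the inner membrane of the mitochondrion. Complexes I and II pass electrons from NADH and succinate to ubiquinone, complex III passes them on to cytochrome c, and complex IV passes them to oxygen. Complexes I, III and IV pump protons, and complex V, the ATP synthase, lets the protons flow back and makes ATP. Each complex except II also holds subunits encoded in the mitochondrial genome. The neural tissue of vertebrates uses much of its ATP for ion pumping and synaptic transmission. The NCBI gene table lists 13 genes of the mitochondrial genome that encode subunits, and the count tables have 0 of these, so the mitochondrially encoded subunits were not analysed here.

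The study compared tadpoles with drug-induced brain abnormalities and control tadpoles, which the labels call wildtype. For the thioridazine tadpoles the labels give no genotype. Thioridazine, an antipsychotic drug that blocks dopamine receptors, was given at 90 µM to embryos between Nieuwkoop-Faber (NF) stages 14 and 26. Control embryos shared the temperatures of 18 °C during that window and 14 °C outside it. Whole brains were taken at NF 45 or NF 47, both before metamorphosis, so the groups were thioridazine at NF 45, control at NF 45, thioridazine at NF 47 and control at NF 47. Each group had 3 libraries, which the labels number as biological replicates without giving the brains or clutches behind each one. The p-values below therefore measure the spread between these samples.

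Library totals lay between 12843954 and 18164871 reads. The neuronal genes snap25.L and tubb3.L were present in every library, with snap25.L between 368 and 583 CPM and tubb3.L between 752 and 971 CPM. Not every gene on the neuronal list was as steady, and syt1.L lay between 2.34 and 104 CPM. Its lowest and highest libraries were also those of the skin and epithelial marker epcam.L, which had 4.96 and 125 CPM there. The tissue behind the syt1.L reads was not tested. CPM here is the read count scaled to a common library size by TMM, and it is not divided by gene length, so levels are compared between libraries and not between genes. Symbols are those of the RefSeq gene table and Gene numbers those of the count tables. In 126 of the 127 genes the reads sufficed for the test across all genes, which covered 26570 genes. The exception was cox6a2.L, in mammals the heart and muscle form of a complex IV subunit. It had 0 of 181224025 reads, which allows a level of up to 0.0166 CPM from counting error alone. Whether reads of this gene could be counted on its row was not tested. The 127 genes together took between 1.04% and 1.31% of the reads of a library. In whole brains, fewer cells of a type and less RNA per cell cannot be told apart.

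A pair of libraries stood apart from the other 10, namely replicate 2 of thioridazine and replicate 2 of control at NF 45. These held the 2 lowest shares of oxidative phosphorylation reads, at 1.05% in the thioridazine library and 1.04% in the control library. Both libraries lay below all other 10 libraries in 98 of 126 genes, against 16.5% of all genes tested, and the median difference from the others was -0.47 on the log2 scale. The gap was uneven over the complexes. Genes were counted with .L and .S copies apart, here and in the counts by role below. The gap covered 42 of 47 complex I accessory genes and 16 of 20 complex IV genes. In complex V it covered 9 of 10 membrane genes and 8 of 8 stalk genes. The gap covered only 3 of 7 complex III core genes, 3 of 8 genes of the complex V F1 head and 1 of 4 complex II catalytic genes. Cytosolic ribosomal protein genes had the same pattern in 133 of 133 genes, with a median difference of -0.70.

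Markers of tissues outside the brain moved with the same pair of libraries. Skin and epithelial markers, 25 tested of 26 found, summed to 199 CPM in the thioridazine library and 243 CPM in the control library, and to between 608 and 2400 CPM in the other 10. Muscle markers, 24 tested of 26 found, summed to 5078 CPM in the thioridazine library and 3578 CPM in the control library, and to between 522 and 1915 CPM in the others. Neuron markers summed to between 4829 and 7140 CPM in every library and progenitor and glia markers to between 5847 and 7387 CPM. The part of other tissues in the levels of the oxidative phosphorylation genes was not tested. The medians and counts of signs of these genes are given below with and without this pair of libraries. Leaving the pair out is no adjustment for other tissues.

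uqcrh.L encodes the hinge protein of complex III and shows the pattern. It had 192, 93.7 and 142 CPM in replicates 1, 2 and 3 of thioridazine at NF 45, against 175, 98.2 and 163.5 CPM in control at NF 45. At NF 47 it had 133, 167 and 163 CPM in thioridazine, against 132, 221 and 194 CPM in control. The lowest value of each NF 45 group was replicate 2, and the groups overlapped at both stages. Over the 126 genes, the lowest library was thioridazine NF 45 replicate 2 for 59 genes and control NF 45 replicate 2 for 50 genes. The highest library was thioridazine NF 45 replicate 3 for 41 genes, thioridazine NF 47 replicate 3 for 30, control NF 47 replicate 2 for 21 and control NF 47 replicate 3 for 20.

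**Figure D1:**
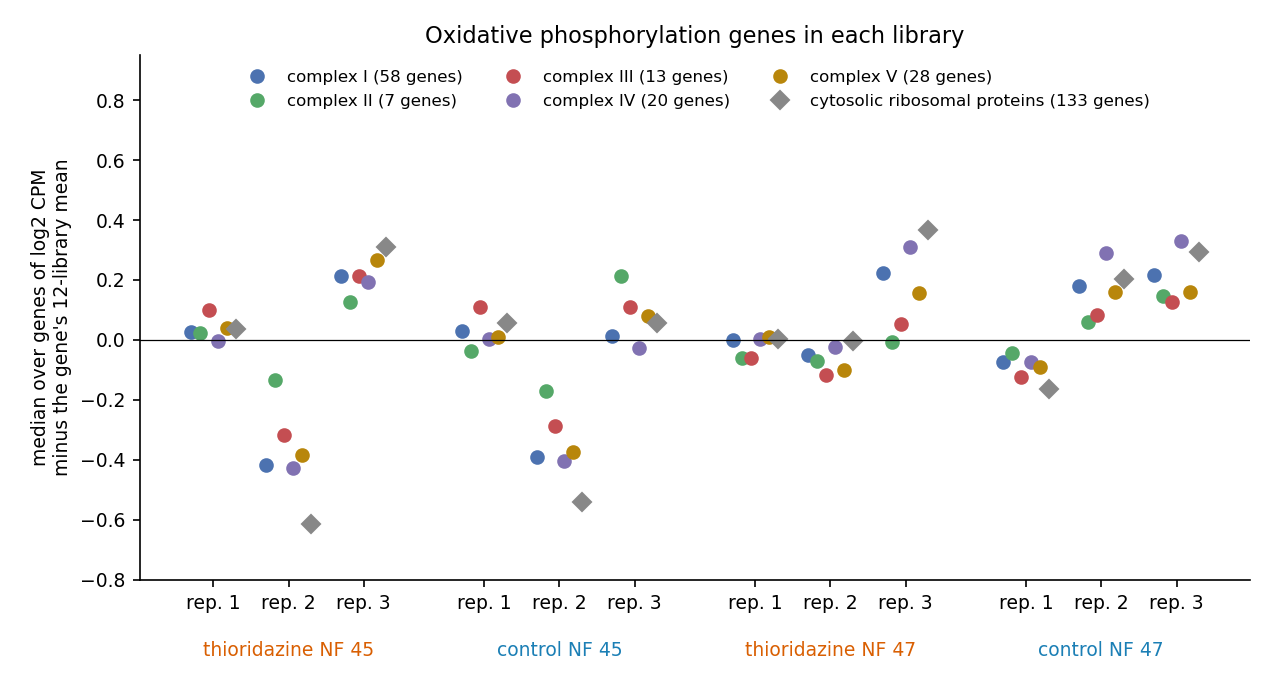
Median over genes of log2 CPM minus each gene's mean over the 12 libraries (vertical axis, log2 units), for the 5 complexes (circles) and for cytosolic ribosomal protein genes (diamonds), in each library (horizontal axis, rep. for replicate). The replicate 2 libraries of both NF 45 groups are the lowest 2 for all 5 complexes, and over all 126 genes the medians of these libraries were -0.39 in thioridazine and -0.38 in control.

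The first comparison asked whether the brains of thioridazine tadpoles differed from control brains at NF 45 in these transcripts. No gene passed the test there. With edgeR's quasi-likelihood test and Benjamini-Hochberg adjustment over all genes, 0 of 126 genes were called, as were 0% of all genes tested. DESeq2 called 0 of 126, against 0.0265% of all genes, and limma-voom with quality weights called 0 of 126, against 0% of all genes. At an unadjusted p under 0.05 edgeR had 0 of 126, against 1.98% of all genes. The median log2 fold change, thioridazine over control, was 0.07 over the 126 genes, with a range of -0.21 to 0.41, and 104 values were above 0 and 22 below. The median over all genes tested was -0.004.

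By role, the values above 0 at NF 45 were all 28 complex V genes, with a median of 0.10, 11 of 13 complex III genes, 17 of 20 complex IV genes and 45 of 58 complex I genes. In complex II, succinate dehydrogenase, 3 of 7 values were above 0, with a median of -0.01. These signs rested on single libraries. Without control NF 45 replicate 2 the median over the 126 genes was -0.07 with 26 values above 0. Without thioridazine NF 45 replicate 3 it was -0.07 with 22 above 0, and without thioridazine NF 45 replicate 2 it was 0.23 with 121 above 0. Without both NF 45 libraries numbered 2 it was 0.11 with 109 above 0. In 0 of 126 genes did all thioridazine libraries lie above all control libraries, against 2.43% of all genes, and in 0 did they all lie below, against 1.56%.

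**Figure D2:**
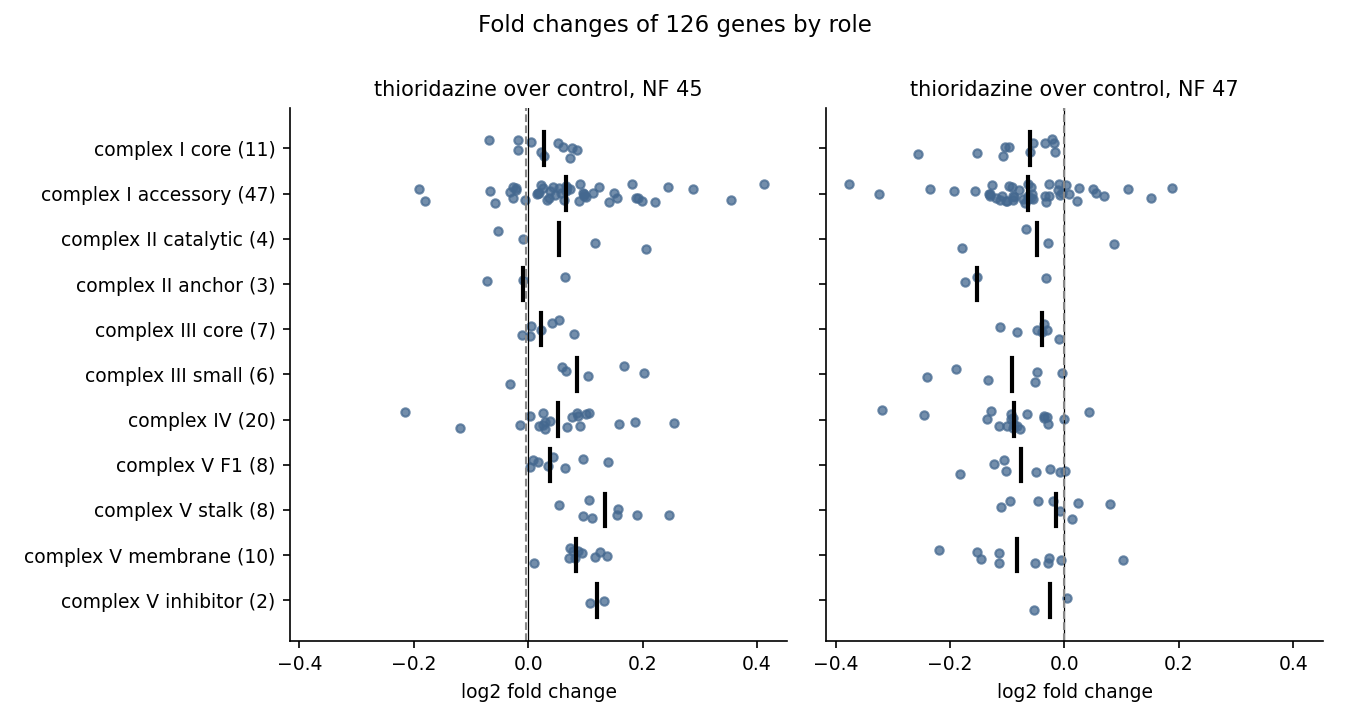
Log2 fold change of thioridazine over control (horizontal axis) at NF 45 (left) and NF 47 (right) for 126 genes, 1 point a gene, in rows by complex and role with the number of genes in brackets. Black bars are the medians of the rows, the dashed line is the median of all genes tested, and the vertical scatter within a row has no meaning. Complex V lies to the right of 0 at NF 45 and all 13 complex III genes lie to the left of 0 at NF 47, and 0 of the 126 genes passed the test at either stage.

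The largest values at NF 45 belonged to subunits of complexes I and IV. Among genes with a mean of at least 5 CPM, the 3 highest were ndufa7.S, ndufs4.S and ndufa5.S, all accessory subunits of complex I, and the 3 lowest were cox4i2.L, ndufa3.L and ndufa8.S. ndufs4.S (Gene 447172) encodes an accessory subunit that complex I needs for stability in mammals and whose loss causes Leigh syndrome in people. It had 16.4, 13.1 and 18.2 CPM in thioridazine at NF 45, against 13.1, 12 and 12.1 CPM in control. The groups met at 13.1 CPM and did not separate. The log2 fold change was 0.36 ± 0.17 (SE), with an adjusted p of 1.00 by edgeR. ndufa7.S (Gene 108706854) averaged 5.89 ± 3.36 CPM in thioridazine and 4.44 ± 1.37 CPM in control (SD, n = 3 each), with a log2 fold change of 0.41 ± 0.46. ndufa5.S averaged 8.77 ± 2.07 CPM in thioridazine and 7.19 ± 0.98 CPM in control, with a log2 fold change of 0.29 ± 0.21. In both genes the difference was smaller than the SD of the thioridazine group, and without thioridazine replicate 3 the value of ndufa7.S was -0.16.

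cox4i2.L (Gene 379593) had the lowest value at NF 45. It encodes isoform 2 of complex IV subunit 4, which in mammals is the form found in lung and linked to low oxygen. It had 55.9, 56.5 and 63.0 CPM in thioridazine, against 73.9, 74.7 and 54.8 CPM in control. Control replicates 1 and 2 lay above all thioridazine libraries and control replicate 3 lay below them. The log2 fold change was -0.21 ± 0.13 with an adjusted p of 1.00 by edgeR. ndufa3.L averaged 11.4 ± 3.33 CPM in thioridazine and 13.1 ± 4.62 CPM in control, with a log2 fold change of -0.19 ± 0.31. ndufa8.S averaged 18.1 ± 3.04 CPM in thioridazine and 20.5 ± 4.0 CPM in control, with a log2 fold change of -0.18 ± 0.18. Both differences were smaller than the SDs of the groups, and the value of ndufa3.L was 0.048 without control replicate 3 and 0.027 without thioridazine replicate 2.

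At NF 47 most values were below 0. edgeR called 0 of 126 genes, as it did 0% of all genes. DESeq2 called 0, against 0% of all genes, and limma-voom called 0, against 0%. At an unadjusted p under 0.05 edgeR had 0 of 126, against 1.1% of all genes. Over the 126 genes the log2 fold change had a median of -0.06 and a range of -0.38 to 0.19, and 18 values were above 0 and 108 below, while the median over all genes tested was -0.001. All 13 complex III genes, all 11 core genes of complex I and 19 of 20 complex IV genes had values below 0. The rest were 6 of 7 in complex II, 22 of 28 in complex V and 37 of 47 complex I accessory genes. Without any 1 library, the median lay between -0.15 and -0.004, and its value without control NF 47 replicate 3 was -0.004 with 61 values above 0. Without both NF 45 libraries numbered 2 it was -0.06.

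Summed markers of other tissues and cells stand beside these values. At NF 45, leukocyte markers, 16 tested, summed to between 66.6 and 111 CPM in thioridazine and between 54.2 and 87.2 CPM in control. Retina and lens markers, 16 tested, summed to between 295 and 717 CPM in thioridazine and between 188 and 666 CPM in control. Liver and gut markers summed to between 584 and 650 CPM in thioridazine and between 596 and 1829 CPM in control, with the highest sum in control replicate 3. Of these sums rbp4.S alone made 543 to 631 CPM. In control replicate 3 fgb.L had 42.0 CPM and rbp4.L 246 CPM, against at most 0.82 and 10.6 CPM in any other library. At NF 47, muscle markers summed to between 1090.4 and 1782 CPM in thioridazine and between 522 and 1335 CPM in control, and retina and lens markers to between 199.5 and 383 CPM in thioridazine and between 155 and 247 CPM in control. Blood markers, 14 tested of 17 found, summed to between 2151 and 2438 CPM in thioridazine at NF 47. In control they had 2001, 3399 and 3836 CPM in replicates 1, 2 and 3. At NF 45 blood markers summed to between 1429 and 2241 CPM in thioridazine and between 1078 and 2592 CPM in control. The groups overlapped for each of these sums. edgeR called none of the markers, but it called 0% of all genes at both stages. Signs were also counted without both NF 45 libraries numbered 2. At NF 47 values were then above 0 for 16 of 16 retina and lens markers, with a median of 0.46, and for 22 of 24 muscle markers, with a median of 0.69. At NF 45 they were above 0 for 13 of 16 leukocyte, 12 of 16 retina and lens, 5 of 24 muscle and 2 of 15 liver and gut markers. The medians were 0.40, 0.32, -0.22 and -2.17 in that order. Blood markers were above 0 for 5 of 14 at both stages, with medians of -0.08 at NF 45 and -0.03 at NF 47. In the same fit neuron markers were above 0 for 19 of 22 at NF 45 and 8 of 22 at NF 47. Their medians were 0.16 and -0.04. Progenitor and glia markers were above 0 for 23 of 31 and 22 of 31, with medians of 0.14 and 0.07. Skin and epithelial markers were above 0 for 13 of 25 and 15 of 25, with medians of 0.03 and 0.08. The part of these markers in the values of the oxidative phosphorylation genes was not tested.

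The groups did not overlap at NF 47 in 3 genes that were lower in thioridazine, against 3.55% of all genes, and in 0 genes that were higher, against 3.81%. The 3 genes were sdha.L, cyc1.S and atp5f1c.L. sdha.L (Gene 398946) encodes the flavoprotein of complex II, which oxidizes succinate. It had 57.3, 60.5 and 57.6 CPM in thioridazine, against 67.1, 67.1 and 64.2 CPM in control. cyc1.S, cytochrome c1 of complex III, averaged 101 ± 3.77 CPM in thioridazine and 106.9 ± 3.57 CPM in control, and its highest thioridazine library and its lowest control library both had 103.9 CPM, so its groups all but met. atp5f1c.L, the gamma subunit of the rotating shaft of complex V, averaged 136 ± 0.79 CPM in thioridazine and 155 ± 11.5 CPM in control. None of these passed the test across all genes.

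Among genes with a mean of at least 5 CPM, the 3 lowest values at NF 47 were those of ndufb1.L, ndufa13.L and ndufs1.S, and the 3 highest those of ndufa3.S, ndufa3.L and ndufa7.S, all of complex I. ndufb1.L, an accessory subunit, averaged 26.6 ± 3.02 CPM in thioridazine and 34.5 ± 12.7 CPM in control, a log2 fold change of -0.38 ± 0.33. ndufa13.L, which encodes the accessory subunit also known as GRIM-19, averaged 50.8 ± 5.89 CPM in thioridazine and 63.6 ± 17.2 CPM in control, a log2 fold change of -0.32 ± 0.29. Both differences were smaller than the SD of the control group. ndufs1.S, a copy of the largest core subunit, averaged 12.4 ± 2.97 CPM in thioridazine and 14.8 ± 4.82 CPM in control, a log2 fold change of -0.26 ± 0.32. At the other end, ndufa3.S averaged 9.98 ± 2.67 CPM in thioridazine and 8.76 ± 1.51 CPM in control, a log2 fold change of 0.19 ± 0.28. ndufa3.L and ndufa7.S had 0.15 ± 0.30 and 0.11 ± 0.46. The signs of these 3 rested on single libraries, since without thioridazine replicate 3 the values were -0.052, -0.017 and -0.23. cox4i2.L had 71.5, 79.1 and 88.1 CPM in thioridazine, against 85.5, 95.3 and 102 CPM in control, with thioridazine replicate 3 above control replicate 1 and the groups otherwise apart. Its log2 fold change was -0.25 ± 0.13, with an adjusted p of 1.00 by edgeR.

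The difference between the treatment contrasts, NF 47 minus NF 45, was itself tested. edgeR called 0 of 126 genes, against 0% of all genes, DESeq2 called 0, against 0%, and limma-voom called 0, against 0%. The median difference was -0.13 and 119 of 126 values were below 0. Without thioridazine NF 45 replicate 3 the median was 0.01 and 71 values were above 0. At an unadjusted p under 0.05 there was 1 of 126, against 0.342% of all genes. This was ndufs4.S, with a difference of -0.59 ± 0.24 and an adjusted p of 1.00 by edgeR. At NF 47 it had 15.3, 13.6 and 18.5 CPM in thioridazine, against 15.7, 21.1 and 19.2 CPM in control, a log2 fold change of -0.23 ± 0.17.

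Libraries that share a replicate number within a stage deviated together, so thioridazine and control libraries were also read as 6 pairs. The median log2 difference over the 126 genes, thioridazine minus control, was 0.01, -0.02 and 0.19 in pairs 1, 2 and 3 at NF 45 and 0.06, -0.27 and -0.01 at NF 47. In pair 2 at NF 47 only 4 of 126 genes were higher in thioridazine, and in pair 3 at NF 45 the count was 107. In all 6 pairs, 0 of 126 genes were higher in thioridazine, against 3.1% of all genes, and 1 was lower, against 3.19%. That gene was sdha.L. With the replicate number as a block and both stages together, edgeR called 0 of 126 genes, against 0.158% of all genes, and had 2 at an unadjusted p under 0.05, against 10.5% of all genes. Within the stages the same block gave 0 calls at NF 45, against 0.0226% of all genes, and 0 at NF 47, against 0.00376%. With both NF 45 libraries numbered 2 left out as well, it gave 0 at NF 47, against 0.0112%.

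Those 2 genes were cox4i2.L, with a log2 fold change over both stages of -0.23 ± 0.08 and an adjusted p of 0.331, and atp5pd.S, subunit d of the peripheral stalk of complex V, with 0.15 ± 0.07 and an adjusted p of 0.469, both by edgeR. cox4i2.L was lower in thioridazine in 5 of 6 pairs and atp5pd.S was higher in 5 of 6. sdha.L had -0.11 ± 0.06 with an adjusted p of 0.525. This blocked fit has 1 treatment term for both stages, so it bounds the mean of their differences and not the difference at either stage. The medians over the 126 genes without the block had opposite signs, with 0.07 at NF 45 and -0.06 at NF 47. The 95% interval of the fold change over both stages lay within 1 log2 unit of 0 for 126 of 126 genes. It lay within 0.5 for 124, and the median half-width was 0.157. At NF 45 alone, without the block, the intervals of 124 genes lay within 1 and those of 64 within 0.5. At NF 47 alone, also without the block, 71 intervals lay within 0.5.

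**Figure D3:**
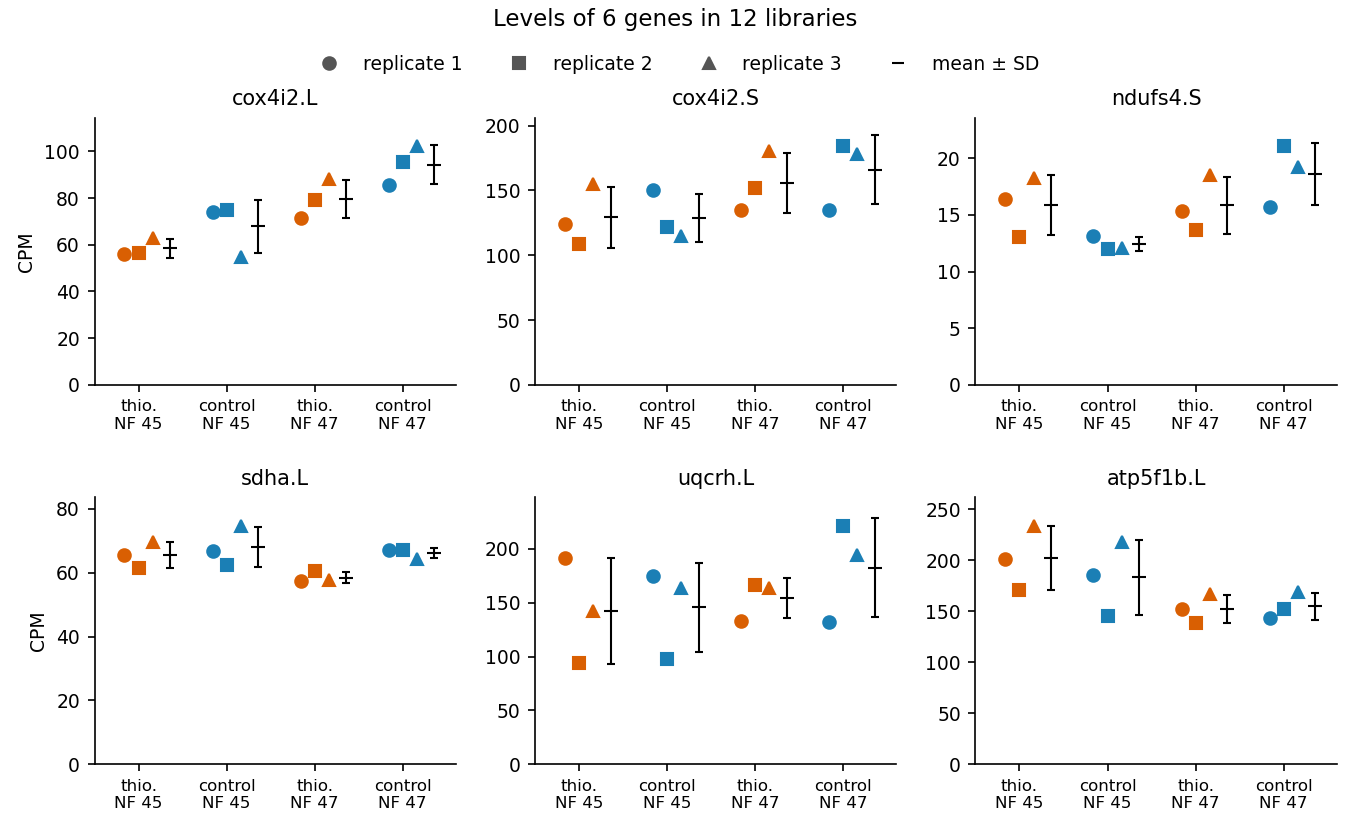
CPM (vertical axis, from 0) of cox4i2.L, cox4i2.S, ndufs4.S, sdha.L, uqcrh.L and atp5f1b.L in the 12 libraries, by group (thio. for thioridazine, orange; control, blue) with 1 marker shape for each replicate number, and the mean ± SD of 3 libraries in black. cox4i2.L lies higher at NF 47 than at NF 45 in thioridazine and in controls, sdha.L is lower in all thioridazine libraries at NF 47 (57.3 to 60.5 CPM) than in all control libraries (64.2 to 67.1 CPM), and uqcrh.L is lowest in the replicate 2 libraries of NF 45.

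Several subunits of complex IV come in tissue isoforms, and the reads counted for each form are given here. Both copies of cox4i2 and the .S copy of cox4i1, the ubiquitous form of the same subunit, were present. cox4i1.S averaged 113 ± 24.9 CPM in thioridazine and 107 ± 16.4 CPM in control at NF 45, and 134 ± 15.4 CPM in thioridazine and 130.0 ± 17.7 CPM in control at NF 47. cox4i2.S (Gene 444815) had 124, 109 and 155 CPM in thioridazine, against 149.9, 122 and 115 CPM in control at NF 45. At NF 47 it had 135, 152 and 181 CPM in thioridazine, against 135, 184 and 178 CPM in control, and the groups overlapped at both stages. Of the cox6a pair of isoforms, cox6a1, the non-muscle form, ranged from 144.5 to 255 CPM in its .L copy and from 79.0 to 136 CPM in its .S copy, while cox6a2.L had no read. Muscle markers summed to between 522 and 5078 CPM in the same libraries, and whether cox6a2.L could take reads was not tested.

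In the other families every form with a row had reads. cox6b1 and cox7a2 were present with both copies. cox7a2l, a relative of cox7a2 that in mammals promotes supercomplexes of complexes III and IV, was present with the copy named .L. It ranged from 54.8 to 76.6 CPM over the 12 libraries. ndufa4, named for complex I and now placed in complex IV in mammals, ranged from 59.7 to 106 CPM in its .L copy and from 27.8 to 64.1 CPM in its .S copy. Both ndufa4 copies were counted here with the complex I accessory genes, by symbol. The rows held no cox6b2, cox7a1, cox8 or ndufa4l2 symbol. By the ratio of the highest to the lowest library, cox5b.2.L had the widest range among the 126, from 1.93 to 7.16 CPM, and ndufv1.L, the NADH-binding core subunit of complex I, had the narrowest, from 180.1 to 221 CPM. The 2 genes of each complex with the most CPM differed between treatments at NF 45 by less than the larger SD. For complex V these were atp5f1b.S and atp5f1a.L, the catalytic beta and the alpha subunit of the F1 head. atp5f1b.S averaged 1185 ± 158 CPM in thioridazine and 1157 ± 113 CPM in control at NF 45, and 1100.2 ± 53.0 CPM in thioridazine and 1106 ± 50.9 CPM in control at NF 47. atp5f1a.L averaged 744 ± 85.8 CPM in thioridazine and 743 ± 73.5 CPM in control at NF 45, and 629 ± 17.6 CPM in thioridazine and 652 ± 24.8 CPM in control at NF 47.

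In complex III, uqcrc1.L averaged 231 ± 29.2 CPM in thioridazine and 231 ± 26.3 CPM in control at NF 45, and uqcrfs1.L, the Rieske iron-sulfur protein, averaged 222 ± 45.3 CPM in thioridazine and 222 ± 42.0 CPM in control. In complex II, sdha.S averaged 114 ± 5.46 CPM in thioridazine and 114 ± 12.9 CPM in control at NF 45, and sdhd.L, a membrane anchor, averaged 71.0 ± 11.9 CPM in thioridazine and 71.5 ± 16.2 CPM in control. At NF 47 sdhd.L averaged 77.6 ± 6.18 CPM in thioridazine and 87.5 ± 10.1 CPM in control. In complex IV, cox6a1.L averaged 177 ± 31.1 CPM in thioridazine and 174 ± 24.0 CPM in control at NF 45, and cox7b.L averaged 149 ± 38.5 CPM in thioridazine and 133 ± 20.3 CPM in control. In complex I, ndufv1.L averaged 197 ± 21.1 CPM in thioridazine and 187 ± 7.14 CPM in control at NF 45. ndufs1.L, the largest iron-sulfur core subunit, averaged 135 ± 9.57 CPM in thioridazine and 128 ± 8.12 CPM in control at NF 45, and 115 ± 5.32 CPM in thioridazine and 124 ± 4.69 CPM in control at NF 47. That last difference exceeded both SDs, and the libraries still overlapped.

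The stage comparison asked how these transcripts differed between NF 47 and NF 45 in each treatment. In thioridazine brains with all libraries, most values of the small and accessory subunits were above 0, which did not hold without the pair of libraries that stood apart, while the values of the cores of complexes III and V were below 0 with and without the pair. Of 126 values, 81 were above 0, and the log2 fold change, NF 47 over NF 45, had a median of 0.08 and a range of -0.41 to 0.45, while the median over all genes was -0.03. All 6 genes for small subunits of complex III, 17 of 20 complex IV genes and 39 of 47 complex I accessory genes were above 0. Their medians were 0.12, 0.18 and 0.11. None of the 7 core genes of complex III and none of the 8 genes of the F1 head was above 0, and both medians were -0.12.

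edgeR called 0 of 126 genes in thioridazine, against 0% of all genes, and had 5 at an unadjusted p under 0.05, against 9.63% of all genes. DESeq2 called 0, against 2.03% of all genes, and limma-voom called 0, against 0.00376%. With the block edgeR called 0, against 0.00376%, and 0 also without both NF 45 libraries numbered 2, against 2.12%. The groups did not overlap in 4 genes that were higher at NF 47, namely cox4i2.L, ndufa1.L, ndufb1.S and ndufb6.S, against 7.35% of all genes. They did not overlap in 5 that were lower, namely atp5f1a.L, atp5f1b.L, ndufs1.L, sdha.L and uqcrc2.S, against 5.98%.

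cox4i2.L led, with 71.5, 79.1 and 88.1 CPM at NF 47, against 55.9, 56.5 and 63.0 CPM at NF 45, a log2 fold change of 0.45 ± 0.13 with an adjusted p of 0.345 by edgeR. atp5f1b.L had 152, 138 and 166 CPM at NF 47, against 201, 171 and 234 CPM at NF 45, a log2 fold change of -0.41 ± 0.16 with an adjusted p of 0.435. All its NF 47 libraries lay below its NF 45 libraries. cox4i2.S had 0.27 ± 0.17 and ndufa1.L 0.41 ± 0.19. uqcrc2.S, a core protein of complex III, had -0.25 ± 0.10, atp5f1a.L had -0.24 ± 0.11 and ndufs1.L had -0.22 ± 0.09. Adjusted p in edgeR lay between 0.464 and 0.669 for these 5 genes.

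In controls the small and accessory subunits also mostly had higher values at NF 47, while the cores of complexes III and V lay near 0. Of 126 values, 106 were above 0, and the log2 fold change, NF 47 over NF 45, had a median of 0.21 and a range of -0.24 to 0.59, and the median over all genes tested was -0.03. In complex I, 45 of 47 accessory genes were above 0, with a median of 0.27, and 8 of 11 core genes, with a median of 0.06. In complex III all 6 genes for small subunits were above 0, with a median of 0.35, and 1 of 7 core genes, with a median of -0.05. In complex IV 19 of 20 were above 0, with a median of 0.34. In complex V all 10 membrane genes and all 8 stalk genes were above 0, with medians of 0.24 and 0.17. Of the 8 genes of the F1 head 3 were above 0, with a median of -0.03.

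The difference between the stage contrasts of thioridazine and controls is the same quantity as the difference between the treatment contrasts given above, for which 0 of 126 genes were called. None of the control values passed edgeR's test after adjustment, with 0 of 126 called, as were 0% of all genes. At an unadjusted p under 0.05 edgeR had 12 of 126, against 11.2% of all genes, which is near the background. DESeq2 called 1 of 126, cox4i2.L with an adjusted p of 0.0487, against 2.15% of all genes. limma-voom called 1, ndufs4.S with an adjusted p of 0.0479, against 3.43% of all genes. edgeR with the replicate number as a block called 0, against 0.00753% of all genes, and called 1, cox4i2.L with an adjusted p of 0.0442, when both NF 45 libraries numbered 2 were also left out, against 7.56%. The groups did not overlap in 14 genes that were higher at NF 47, against 9.83% of all genes, and in 0 that were lower, against 8.62%.

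cox4i2.L had the smallest unadjusted p of the 126 genes in edgeR in controls too. Its control values were 85.5, 95.3 and 102 CPM at NF 47, against 73.9, 74.7 and 54.8 CPM at NF 45. The NF 47 libraries all lay above the NF 45 libraries, and the log2 fold change was 0.48 ± 0.13, with an adjusted p of 0.25. ndufs4.S had 15.7, 21.1 and 19.2 CPM at NF 47, against 13.1, 12 and 12.1 CPM at NF 45, again without overlap, and its log2 fold change was 0.59 ± 0.17, with an adjusted p of 0.255 by edgeR. cox4i2.S, the other copy of the isoform, had a log2 fold change of 0.36 ± 0.17 with an adjusted p of 0.458, and its groups overlapped.

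The other genes named here from the upper end were small subunits. ndufa1.L, a small membrane subunit of complex I, averaged 42.1 ± 3.45 CPM at NF 47 and 28.7 ± 6.12 CPM at NF 45, a log2 fold change of 0.55 ± 0.19. ndufa5.L and ndufa8.L, further accessory subunits, had 0.51 ± 0.21 and 0.36 ± 0.15. In complex IV the small subunits cox7b.L, cox7c.L and cox6c.S had 0.45 ± 0.20, 0.42 ± 0.18 and 0.35 ± 0.14. In complex V atp5mf.S, a membrane subunit, had 0.50 ± 0.22 and atp5pf.L, coupling factor 6 of the stalk, had 0.45 ± 0.19. In complex III uqcrq.S and uqcrb.S had 0.40 ± 0.22 and 0.39 ± 0.20. Adjusted p in edgeR lay between 0.318 and 0.531 for these 10 genes. The lowest value was that of atp5f1b.L (Gene 108708577), a copy of the catalytic beta subunit of complex V. It had 143.5, 152 and 169 CPM at NF 47, against 186, 145.5 and 218 CPM at NF 45, a log2 fold change of -0.24 ± 0.16, and the groups overlapped.

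The stage values depended on the libraries that stood apart. Without both NF 45 libraries numbered 2, the thioridazine median was -0.06 with 47 of 126 values above 0, so that the sign of the median changed. Complex I accessory subunits then had a median of -0.03 with 21 of 47 values above 0, and the small subunits of complex III -0.03 with 3 of 6. It was 0.06 for complex IV, with 12 of 20 values above 0, and -0.21 for both complex III core and the F1 head, with none above 0. Without thioridazine NF 45 replicate 2 alone the thioridazine median was -0.06, and without thioridazine NF 45 replicate 3 it was 0.25. In controls the median without both libraries was 0.12 with 92 of 126 values above 0. By role it was then 0.16 for complex I accessory subunits, 0.25 for small subunits of complex III and 0.27 for complex IV, and -0.11 for complex III core and -0.06 for the F1 head.

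The stage values of markers stand beside these. edgeR called none of the markers, but it called 0% of all genes in both treatments. Neuron markers had values above 0 for 19 of 22 genes in thioridazine, where the median was 0.17 on the log2 scale, and for 20 of 22 in controls, with a median of 0.25. Without both NF 45 libraries numbered 2 the neuron medians were 0.27 in thioridazine, with 20 of 22 above 0, and 0.44 in controls, with 21. Progenitor and glia markers then had medians of 0.06 in thioridazine, with 16 of 31 above 0, and 0.07 in controls, with 18. Skin and epithelial markers had values above 0 for 2 of 25 genes in each treatment, with medians of -0.34 in thioridazine and -0.46 in controls. Their sums overlapped between stages only through the NF 45 libraries numbered 2, at 199 and 243 CPM. The other NF 45 libraries had 1268 to 2400 CPM, against 608 to 807 CPM at NF 47. Without that pair the skin medians were -0.79 in thioridazine and -0.95 in controls, with 1 of 25 above 0 in each. Muscle markers had values above 0 for 5 of 24 genes in each treatment, with medians of -0.56 in thioridazine and -1.10 in controls. Without both NF 45 libraries numbered 2 the muscle medians were 0.38 in thioridazine, with 20 of 24 above 0, and -0.59 in controls. Retina and lens markers had values above 0 for 1 of 16 genes in thioridazine, with a median of -0.77, and for 3 of 16 in controls, with a median of -0.95. Without the pair the counts were the same, with medians of -0.88 in thioridazine and -1.14 in controls. Liver and gut markers summed to 1829 CPM in control NF 45 replicate 3 and to between 584 and 830 CPM in the other 11 libraries. Of these sums rbp4.S alone made 543 to 795 CPM. Without the pair the median over 15 liver and gut markers was -0.27 in thioridazine, with 6 above 0. In controls it was -3.90, with 3 above 0. Blood markers summed to 1429 to 2241 CPM at NF 45 and 2151 to 2438 CPM at NF 47 in thioridazine. In controls they summed to 1078 to 2592 CPM and 2001 to 3836 CPM. The part of all these markers in the stage values of the oxidative phosphorylation genes was not tested.

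**Figure D4:**
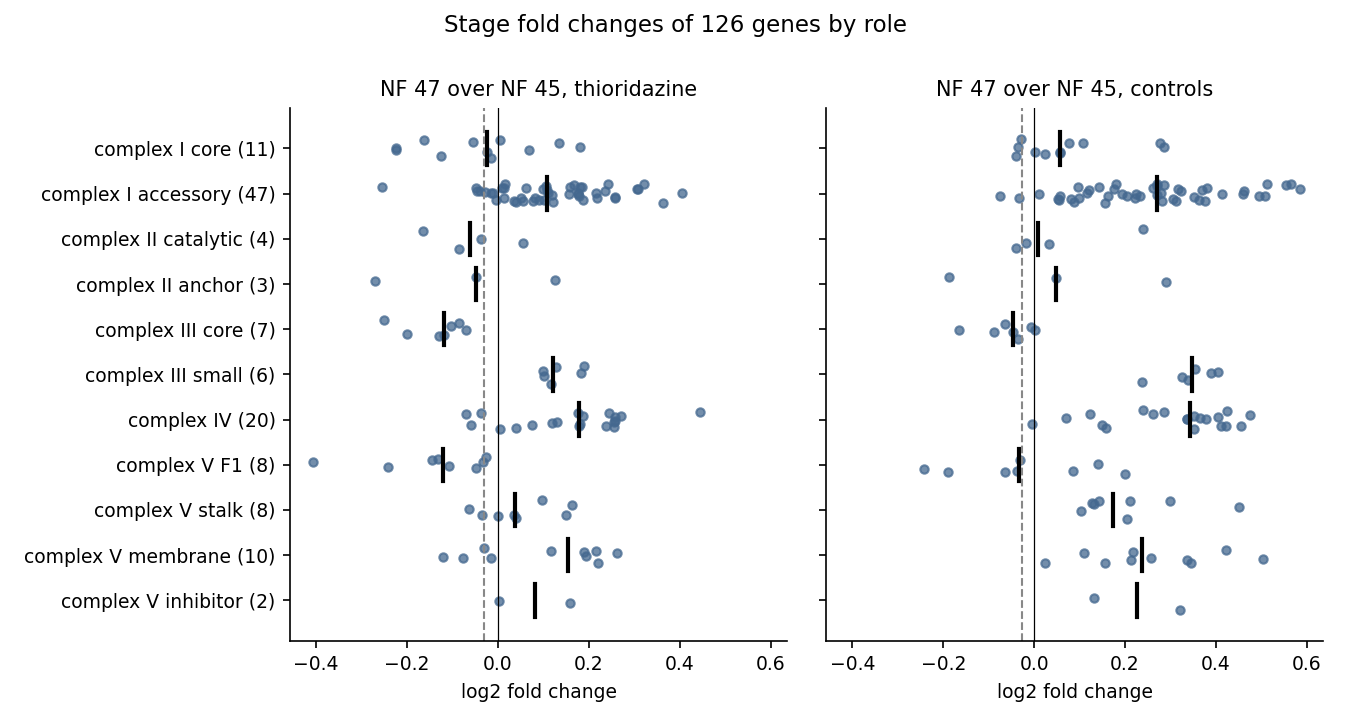
Log2 fold change of NF 47 over NF 45 (horizontal axis) in thioridazine (left) and in controls (right) for 126 genes, 1 point a gene, in rows by complex and role with the number of genes in brackets. Black bars are the medians of the rows, the dashed line is the median of all genes tested, and the vertical scatter within a row has no meaning. With all libraries the small subunits of complex III and complex IV lie to the right, with medians of 0.12 and 0.18 in thioridazine and 0.35 and 0.34 in controls, and the medians of the complex III core and the F1 head lie left of 0.

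The genes that assemble, supply or accompany the complexes were compared by list. For thioridazine over control at NF 45, median log2 fold changes were 0.09 over 49 assembly factor genes, 0.10 over 93 mitochondrial ribosomal protein genes, 0.07 over 53 protein import genes, 0.03 over 31 genes of mitochondrial biogenesis and 0.03 over 30 genes of the tricarboxylic acid cycle. At NF 47 the same lists had -0.02, 0.01, -0.01, -0.02 and -0.06. Glycolytic genes, 33 in number, had 0.07 at NF 45 and -0.10 at NF 47. Cytochrome c and coenzyme Q genes, 21 in number, had -0.03 at NF 45 and 0.01 at NF 47, and 24 antioxidant and uncoupling genes had 0.09 and -0.02. Cytosolic ribosomal protein genes, 133 in number, had 0.08 and 0.01. edgeR called none of these genes at either stage, since it called 0% of all genes. Its unadjusted p was under 0.05 for 3 genes of all these lists together at NF 45, against 1.98% of all genes. At NF 47 it was so for 1 gene, against 1.1%.

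Between stages the lists differed in their medians. Glycolytic genes had a median log2 fold change, NF 47 over NF 45, of 0.17 in thioridazine, where 23 of 33 values were above 0 and 8 had an unadjusted p under 0.05, against 9.63% of all genes. In controls the median was 0.36, where 28 of 33 values were above 0 and 21 had such a p, against 11.2% of all genes. None of the 33 was called after adjustment in either. Cytosolic ribosomal protein genes had 0.16 in thioridazine and 0.25 in controls, with 0 of 133 at an unadjusted p under 0.05 in either. Medians in thioridazine were -0.08 for assembly factors, -0.03 for mitochondrial ribosomal proteins, -0.08 for import, -0.07 for the tricarboxylic acid cycle and -0.12 for biogenesis. In controls the same lists had 0.07, 0.04, 0.02, 0.02 and -0.10. Antioxidant and uncoupling genes had 0.03 in thioridazine and 0.17 in controls, and cytochrome c and coenzyme Q genes had -0.09 in thioridazine and 0.08 in controls. Without both NF 45 libraries numbered 2, the cytosolic ribosomal median was -0.03 in thioridazine, with 56 of 133 values above 0, and 0.12 in controls, with 112 of 133. The glycolytic median was then 0.19 in thioridazine and 0.39 in controls. Without the pair the medians in thioridazine were -0.15 for assembly factors, -0.17 for mitochondrial ribosomal proteins, -0.14 for import, -0.08 for the tricarboxylic acid cycle, -0.12 for biogenesis, -0.13 for antioxidant and uncoupling genes and -0.09 for cytochrome c and coenzyme Q. In controls the same lists had 0.04, -0.03, -0.02, -0.002, -0.07, 0.01 and 0.05. Citrate synthase, the first enzyme of the cycle, had log2 fold changes of -0.22 ± 0.10 for cs.L and -0.23 ± 0.10 for cs.S in thioridazine, with adjusted p of 0.508 and 0.465, and of -0.18 ± 0.10 and -0.26 ± 0.10 in controls, with adjusted p of 0.531 and 0.358, all by edgeR.

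Cytochrome c, the carrier between complexes III and IV, and the regulators of mitochondrial genes gave no call between treatments. For thioridazine over control, cycs.S had 0.20 ± 0.14 at NF 45 and -0.03 ± 0.14 at NF 47, and cycs.L had 0.07 ± 0.19 and -0.06 ± 0.19. nrf1.L, a transcription factor for nuclear genes of the respiratory chain, had -0.003 ± 0.10 and 0.10 ± 0.10, and nrf1.S had 0.06 ± 0.15 and 0.17 ± 0.15. tfam.L, a factor that packs and transcribes mitochondrial DNA, had 0.01 ± 0.11 and 0.01 ± 0.11, and tfam.S had 0.13 ± 0.26 and -0.08 ± 0.27. ppargc1a.S, a coactivator of mitochondrial biogenesis in mammals, had the widest errors, at -0.42 ± 0.28 and -0.26 ± 0.28, with 3.11, 5.91 and 3.90 CPM in thioridazine against 4.42, 7.73 and 5.24 CPM in control at NF 45. ppargc1a.L had -0.12 ± 0.24 and -0.19 ± 0.24. Adjusted p was 1.00 by edgeR for each of these genes at both stages.

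The balance of .L and .S copies was taken as the log2 ratio of their reads within each library, with 0.5 added to both counts, so that it does not depend on the library total. It is a ratio of reads and not of reads per length. Of 52 pairs of copies, 31 had more .L reads and 21 more .S reads on average, and the median was 0.36, against 0.32 over the 6788 pairs of all genes tested. In 36 of the 52, or 69.2%, the copies were within 2-fold of each other, against 56.0% of all pairs. In 49 of the 52, or 94.2%, the same copy had more reads in every library, against 75.5% of all pairs. The 3 others were atp5po, atp5mc3 and atp5pd, which lay close to evenness. The shares of all pairs were not matched for read number, and pairs entered from 20 reads in every library. The median SD of the log2 ratio was 0.15 for the 52 pairs and 0.24 for all pairs.

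The most uneven pairs toward .L were ndufs1 with a mean log2 ratio of 3.21 (range 2.69 to 4.04 over 12 libraries), ndufb7 with 2.74 (2.51 to 3.08) and uqcrh with 1.97 (1.83 to 2.10). Toward .S they were atp5f1b with -2.73 (-2.92 to -2.51), uqcrb with -2.41 (-2.73 to -2.07) and atp5mf with -1.48 (-1.72 to -1.22). For atp5f1b, the beta subunit of complex V, 13.1% of the reads of the pair lay on the .L copy, and for ndufs1, the largest core subunit of complex I, 90.3% did. cox4i2 had a mean of -0.96, or 34.0% of reads on the .L copy.

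The balance gave no call between treatments or stages. With limma and Benjamini-Hochberg adjustment over all pairs, 0 of 52 pairs were called for thioridazine over control at NF 45 and 0 at NF 47, against 0% of all pairs at both. At an unadjusted p under 0.05 there were 2 of 52 at NF 45, against 2.4% of all pairs, and 0 of 52 at NF 47, against 1.89%. Differences in the log2 ratio lay between -0.37 and 0.26 at NF 45 and between -0.27 and 0.18 at NF 47, with a median SE of 0.11. Between the treatment contrasts 0 of 52 were called, against 0% of all pairs, with 1 at an unadjusted p under 0.05, against 1.05%. Between stages 0 of 52 were called in thioridazine, against 0% of all pairs, and 0 in controls, against 0.0147%. At an unadjusted p under 0.05 there were 2 in thioridazine, against 7.81% of all pairs, and 6 in controls, against 7.13%. The smallest p among the 6 was that of ndufs4, with a difference of -0.47 ± 0.13, NF 47 minus NF 45, and an adjusted p of 0.693 by limma.

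The balance of same-numbered libraries deviated together, so the number was also taken as a block in limma. The block gave 0 of 52 calls in every contrast, against 0% of all pairs in each. With it, 5 of 52 had an unadjusted p under 0.05 for thioridazine over control at NF 45, against 5.76% of all pairs, and 1 did at NF 47, against 4.57%. Between the treatment contrasts there were 3, against 2.45%. The 5 at NF 45 were cox6b1, ndufs4, cox4i2, ndufa8 and atp5f1b, with differences of -0.22 ± 0.07, -0.37 ± 0.12, -0.20 ± 0.07, 0.26 ± 0.09 and 0.12 ± 0.05, each with an adjusted p of 0.856 by limma. The 1 at NF 47 was cox4i2, with -0.16 ± 0.07, and it did not pass after adjustment. For ndufa7 the block gave -0.35 ± 0.17 at NF 45, with an adjusted p of 0.89 by limma. Between stages there were 3 in thioridazine, against 13.7% of all pairs, and 9 in controls, against 13%. The smallest adjusted p of all was that of atp5f1b in thioridazine, with a difference of -0.30 ± 0.05, NF 47 minus NF 45, and an adjusted p of 0.0841 by limma.

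The balance was also tested by replicate number. Libraries with the same number were compared over all 4 groups in an F test that was added after the data were seen. limma called 8 of 52 pairs, or 15.4%, against 9.96% of all pairs. Among them were ndufs1 (adjusted p 0.0014), cox6a1 (0.0038), ndufa7 (0.0146), sdhb (0.0311), ndufb9 (0.032), ndufa8 (0.0335) and cox7c (0.043), all by limma. With NF 45 libraries alone 3 of 52 were called, against 4.16% of all pairs, and with NF 47 libraries alone 2 of 52, against 2.73%. Both counts are near the background. ndufs1 was called in both. Without both NF 45 libraries numbered 2, 2 were called, ndufs1 and cox6a1, against 4.5% of all pairs, and leaving out any 1 library gave 2 to 7, against 3.9% to 13.1% of all pairs. The count was 2 without control NF 47 replicate 3 and 3 without thioridazine NF 45 replicate 3. It was 4 without control NF 45 replicate 2, thioridazine NF 47 replicate 2 or thioridazine NF 47 replicate 3, and 5 without control NF 47 replicate 1 or replicates 1 or 2 of thioridazine NF 45 or replicate 1 of thioridazine NF 47.

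ndufs1 showed the pattern most plainly. In replicate 3 its log2 ratio was 4.04 in thioridazine and 3.64 in control at NF 45, and 3.63 in thioridazine and 3.79 in control at NF 47. In replicates 1 and 2 it lay between 2.69 and 3.15 in all groups, so the replicate 3 libraries stood apart at both stages and in both treatments. The .S copy was the one that differed by number. ndufs1.S had between 8.81 and 10.8 CPM in the 4 libraries numbered 3, between 13.7 and 18.4 CPM in those numbered 2 and between 14.6 and 18.0 CPM in those numbered 1. ndufs1.L had between 112 and 145.5 CPM, with the numbers overlapping. The labels do not say what a replicate number shares, and how reads that match both copies were counted is not given in the sources used here.

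Single copies were tested in the same way. Over genes, edgeR called 4 of 126 by replicate number, or 3.17%, against 2.92% of all genes, which is near the background. They were sdhb.S with an adjusted p of 0.0106, ndufs1.S with 0.0121, ndufa7.S with 0.0217 and cox7a2.L with 0.0401. sdhb.S (the .S copy of the iron-sulfur subunit of complex II) had between 74.8 and 101 CPM in the libraries numbered 3, between 42.0 and 52.3 CPM in those numbered 2 and between 59.6 and 71.4 CPM in those numbered 1, with no overlap between the numbers. ndufa7.S had between 5.85 and 9.70 CPM in those numbered 3, against 3.12 to 5.03 CPM in those numbered 2 and 3.76 to 4.62 CPM in those numbered 1. For ndufs1 and ndufa7 the copy with fewer reads of the pair was the one called, and for sdhb and cox7a2 the copy with more reads.

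**Figure D5:**
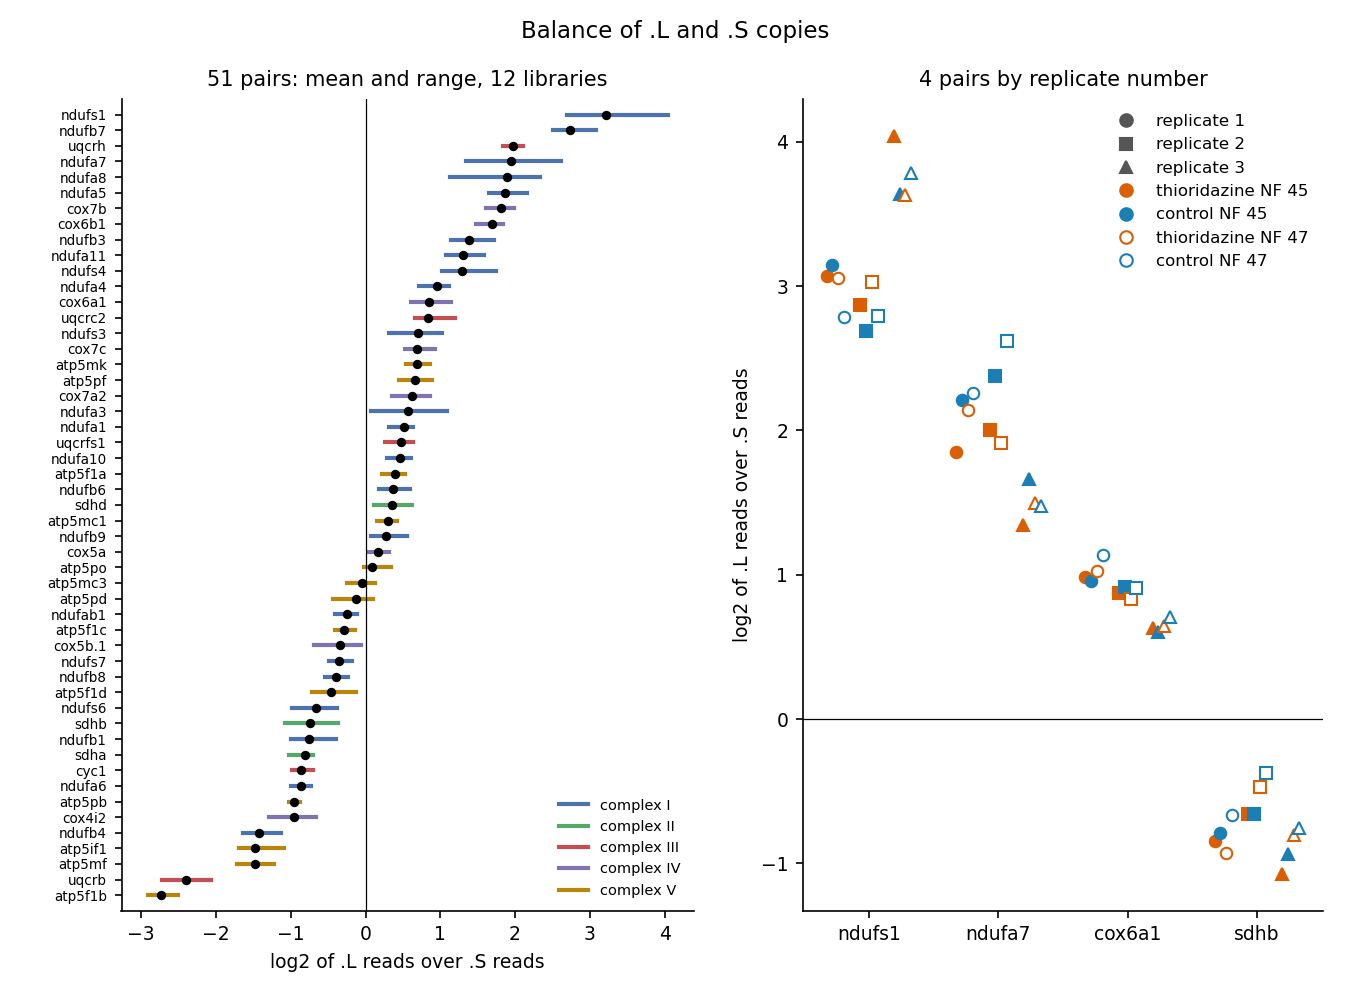
Left, log2 of .L reads over .S reads (horizontal axis) for 51 of the 52 pairs of copies, as the mean (black point) and range (line, coloured by complex) over 12 libraries. Right, the same log2 ratio (vertical axis) of 4 pairs in each library, by replicate number (marker shape), treatment (colour) and stage (filled NF 45, open NF 47). The 4 replicate 3 libraries of ndufs1 lie between 3.63 and 4.04 and the other 8 between 2.69 and 3.15.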

How the data were processed

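Per the labels' protocols, total RNA from whole brains was read as 100 bp single ends from TruSeq v2 libraries, and embryos were kept at 50 per 10 mL during exposure. The authors deposited raw read counts per NCBI Gene number, with no normalization. The tools named in the submitters' processing notes are HISAT2, HTSeq, Trimmomatic and DESeq2. Their versions, the genome build, the use of strand and the handling of multiply mapped reads are not given in the sources used here, so values of single .L and .S copies, of antisense partners and of near-identical genes are uncertain by an unknown amount. Symbols come from the NCBI RefSeq gene table of assembly Xenopus_laevis_v10.1, which named 33597 of 37018 gene numbers, holding 99.3% of reads. The other 3421 were tested without a name.

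Counts were tested in R 4.3.3 with edgeR 4.0.16 (filterByExpr, TMM, robust quasi-likelihood F test, 1 fit of all 12 libraries, Benjamini-Hochberg adjustment over 26570 genes, adjusted p under 0.05 called). The balance was tested with limma 3.58.1 on pairs with at least 20 reads in every library. Alternatives used DESeq2 1.42.0, limma-voom with quality weights, other filters and scalings, leaving out libraries, and the replicate number as a block. The median biological coefficient of variation was 20.8% over all genes and 17.6% over the genes described, which limits the precision at 3 libraries a group. Replicates were checked for duplicates, and the chi-square per gene between them was 6.91 to 52.8, so each counted as its own sample. The edgeR and balance tests were run on simulated data for the NF 45 contrast. The simulated libraries lacked the shared deviations of same-numbered libraries, and their changes were larger than those of the genes described. The simulation therefore does not show how often differences of the size seen here would be called.

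Same-numbered thioridazine and control libraries deviated together from their group means, with correlations across genes of 0.575, 0.845 and 0.449 at NF 45 and 0.291, 0.318 and 0.54 at NF 47, so the numbers were taken to pair libraries within a stage. Different-numbered ones within a stage ranged from -0.72 to 0.48. The highest of these, thioridazine replicate 1 with control replicate 3 at NF 45, exceeded the 0.449 of the same-numbered pair 3. Deviations from a mean of 3 libraries cancel out, so these correlations depend on each other and negative ones are partly built in. Both NF 45 libraries numbered 2 stood far from their group means, which makes the libraries numbered 1 and 3 correlate whatever their number. The 0.575 and 0.449 are therefore no separate support for pairing at NF 45. The labels do not say what the numbers share. Between stages the correlations of same-numbered libraries ranged from -0.13 to 0.43, so the block across stages is an alternative only. For the balance, same-numbered libraries had correlations of 0.264 to 0.608 within a stage and 0.149 to 0.486 between stages, and the number was used as a block for both, between stages as an alternative chosen after seeing the data.

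The genes, lists and roles were chosen with earlier results of these data known. Genes were named where they were called, were among the 2 highest by CPM in their complex, were among the 3 largest or 3 smallest fold changes of a thioridazine contrast at a mean of at least 5 CPM, belonged to a tissue isoform family or were among the 3 most uneven pairs each way. uqcrh.L, atp5f1b.L, sdha.L, atp5pd.S and the single genes of the stage comparisons were chosen after their values were seen. Apart from the chromosomes given for cox7a2l.L and uqcrq.S, genome positions and promoter sequences were not used here. Of the subunits 1 is counted but not reported by name.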

Additional observations from a re-analysis of the deposited data

How the results depend on the processing

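Of the values of single genes under each alternative, 747 kept their sign and their side of the threshold, 9 reversed and 3 crossed the threshold. Counts were taken as unchanged within 1.5 times, and medians within 0.222 log2 units, the SD between replicates, whatever their sign. By these limits 304 counts and medians were unchanged and 15 were not. The limit for medians is wider than the medians over the 126 genes, so the tally does not show that their signs held. The number of genes called between stages in controls was 1 in place of 0 with DESeq2, with limma-voom and with the replicate block without both NF 45 libraries numbered 2. That last fit gave cox4i2.L a log2 fold change of 0.58 with an adjusted p of 0.0442 by edgeR, against 7.56% of all genes called. With the replicate block alone, which paired libraries by number, 0 of 126 genes were called in any contrast, and the block changed no call. By replicate number, limma called the balance of 8 of 52 pairs, against 9.96% of all pairs. It called 2 without both NF 45 libraries numbered 2, 3 in NF 45 libraries alone, 2 in NF 47 libraries alone and 2 to 7 without single libraries.

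The reversed values came from leaving out single libraries, for thioridazine over control. At NF 45 ndufa3.L ranged from -0.46 to 0.048 and ndufa7.S from -0.16 to 0.70. At NF 47 ndufa3.L ranged from -0.043 to 0.29, ndufa3.S from -0.052 to 0.33 and ndufa7.S from -0.23 to 0.64. The cause was not tested.

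Medians over the 126 genes moved with single libraries, from -0.07 to 0.23 for thioridazine over control at NF 45, from -0.15 to -0.004 at NF 47, from -0.29 to 0.01 for their difference, and, NF 47 over NF 45, from -0.06 to 0.25 in thioridazine and from 0.09 to 0.29 in controls. The 3 libraries a group limit each value, and a gene with few reads, such as ndufa7.S, carries the widest error. The planned description of promoter motifs was not run.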
